A study of Mus musculus with 6 samples.

Results

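Respiratory complex I is the first enzyme of the mitochondrial electron transport chain. It was described here in common myeloid progenitors (CMP), the bone marrow cells that give rise both to granulocyte-monocyte and to megakaryocyte-erythrocyte progenitors. The genes were those whose only annotated symbol starts with Nduf, and 44 of the 18193 genes measured met this rule. They comprised 6 nuclear genes of core subunits, 28 of supernumerary subunits, 8 of Ndufaf assembly factors and 2 of neither kind, Ndufa4 and Ndufa4l2. Where a gene had several probe sets, the brightest over the 6 arrays stood for it. The Entrez Gene identifiers of the core genes are 75406 for Ndufs7, 68349 for Ndufs3, 72900 for Ndufv2, 225887 for Ndufs8, 227197 for Ndufs1 and 17995 for Ndufv1. Ndufs6 and Ndufa11 are not among the 44, and values of probe sets shared between genes are given at the close.

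High-ROS CMP (3 samples) were set against low-ROS CMP (3 samples). All came from bone marrow of C57BL6 mice, flushed from femurs, tibiae and ilia, and the labels name no engineered allele; age and sex are not given in the sources used here. Staining was with H2-DCFDA, which becomes fluorescent once oxidised by reactive oxygen species (ROS), and each fraction took 15 to 20% of all CMP at its end of the staining. The series asks what ROS do as CMP become megakaryocyte-erythrocyte progenitors. Separate mice or sorts are not stated for the replicates, so p-values measure the spread between these samples only, which may be technical.

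Complex I takes electrons from NADH, passes them along a row of iron-sulfur clusters to ubiquinone, and pumps protons across the inner membrane. Core subunits carry out this chemistry and are conserved from bacteria, supernumerary subunits surround and stabilise them, and assembly factors help to build the complex and are not part of the finished enzyme. The complex is one of the known sites of superoxide formation in mitochondria. The mitochondrial genome encodes a further 7 core subunits, of which ND5 was measured and the others are not analysed here.

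The labelled cell type was checked against markers. Kit, the stem cell factor receptor of the progenitor gate, had signals of 559, 523 and 552 in high-ROS CMP, against 749, 616 and 561 in low-ROS CMP, and the primary granule enzyme Mpo lay between 6694 and 7494 in high-ROS CMP and between 6543 and 7078 in low-ROS CMP. Of the other genes on the list for this gate, the transcription factor Gata2 had 306, 236 and 331 in high-ROS CMP, against 494, 472 and 488 in low-ROS CMP (log2 fold change -0.72, SE 0.157, adjusted p = 0.264), and Cd34 had 610, 801 and 341 in high-ROS CMP, against 360, 395 and 497 in low-ROS CMP. The Gata2 and Kit arrays did not overlap between the groups and those of Cd34 did. Il7r, which a CMP gate leaves out, had signals of 669 to 764 in high-ROS CMP and 666 to 835 in low-ROS CMP. Transcripts of later neutrophils (Ltf, Camp and Mmp8) summed to 12740 to 14010 in high-ROS CMP and 13390 to 14790 in low-ROS CMP. Over the 6 arrays Ltf lay between 5193 and 6183 and Camp between 6253 and 7302. For Ltf and Mmp8 every high-ROS array was below every low-ROS array (66.7% of these 3 genes, beside 5.32% of all genes), while the Camp arrays overlapped. Markers of B, T and NK cells summed to 716 to 844 in high-ROS CMP and 695 to 878 in low-ROS CMP (5 genes), those of macrophages to 1590 to 1932 in high-ROS CMP and 1634 to 1982 in low-ROS CMP (3 genes), and those of platelets to 120 to 133 in high-ROS CMP and 92.9 to 144 in low-ROS CMP (3 genes). Of the erythroid markers, the haemoglobin gene Hba-a1 was near 0, at 1.0 to 8.4 over the 6 arrays, while Alas2 of heme synthesis lay between 1747 and 2057. Markers of stem cells and multipotent progenitors differed between the groups. The signals of the 8 genes summed to 794 to 956 in high-ROS CMP and 1676 to 1986 in low-ROS CMP. Of the 8, 7 were lower in high-ROS CMP at an unadjusted p under 0.05 (limma), beside 3.37% of all genes. Angpt1 alone passed the adjusted test (adjusted p = 0.0073), where 0.0385% of all genes passed as lower. These markers were listed with earlier results of these data known. The part of the difference in stem cell markers in the complex I values was not tested. In such bulk samples fewer cells of a type and less RNA per cell cannot be told apart. For the Gapdh control probe sets the 3' over 5' signal, a measure of RNA integrity and labelling, was 3.57, 2.997 and 4.53 in high-ROS replicates 1 to 3 and 3.19, 2.85 and 2.54 in low-ROS replicates 1 to 3. High-ROS replicate 3 thus stood above the other arrays in this ratio.

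Stretches of 250 bases before the transcription start are shown for 3 genes whose means were higher in high-ROS CMP, taken from RefSeq (build GRCm38.p6), as examples of how the promoters of this nuclear gene family compare. Of the 44 genes, 39 have an entry in the promoter table. Capitals mark matches to 2 motifs known from promoters of mitochondrial genes: CGCANGCG, the inner part of the site of the nuclear respiratory factor NRF1, and CCGGAAG, the core of sites of ETS factors such as GABPA.
Ndufs7, chr10:80249199-80249448, plus strand: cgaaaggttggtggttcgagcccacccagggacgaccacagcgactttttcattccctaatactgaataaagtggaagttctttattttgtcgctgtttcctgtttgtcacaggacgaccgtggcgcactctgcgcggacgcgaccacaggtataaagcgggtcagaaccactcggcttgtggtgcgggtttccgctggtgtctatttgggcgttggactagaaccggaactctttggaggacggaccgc
Ndufs3, chr2:90904722-90904971, minus strand: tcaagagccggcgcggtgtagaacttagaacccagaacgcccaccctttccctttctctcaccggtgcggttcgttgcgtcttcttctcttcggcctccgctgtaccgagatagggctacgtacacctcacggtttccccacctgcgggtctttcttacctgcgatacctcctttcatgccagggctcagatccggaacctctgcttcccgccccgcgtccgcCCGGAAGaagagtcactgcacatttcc
Ndufa5, chr6:24527691-24527940, minus strand: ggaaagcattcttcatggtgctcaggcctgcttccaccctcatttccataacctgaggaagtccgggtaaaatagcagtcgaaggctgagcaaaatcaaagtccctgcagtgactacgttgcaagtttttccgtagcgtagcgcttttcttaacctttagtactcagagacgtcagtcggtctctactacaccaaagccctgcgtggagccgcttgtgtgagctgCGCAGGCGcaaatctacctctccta
The Ndufs3 stretch holds the ETS letters 27 to 21 bases before the start. The Ndufa5 stretch, that of the more upstream of its 2 annotated starts, holds the NRF1 letters 25 to 18 bases before the start. The Ndufs7 stretch holds neither. Both strands were searched, and no matches of different motifs overlapped before these 39 genes. The NRF1 letters were found before 9 of the 39 genes with an entry (Ndufa5, Ndufa7, Ndufa8, Ndufa12, Ndufb4, Ndufb10, Ndufs5, Ndufaf2 and Ndufaf4). They were in 24.4% of the 41 stretches of the 39 genes, against 6.76% of all 32851 promoter stretches of this length, which include those of predicted and non-coding genes. The Ndufa5 stretches overlap and share a single site, 25 bases before the more upstream start and 189 before the other, so the 24.4% counts that site in both. The ETS letters were found before 5 genes (Ndufs3, Ndufaf1, Ndufaf8, Ndufb6 and Ndufb7), in 12.2% against 6.91%. TNAAGGTCA, a site of oestrogen-related receptors, was found before 1 gene, Ndufb4 (2.44% against 1.14%), and AAGATGG, part of the YY1 site, before 0 (4.49% of all stretches). Of the 5 core genes with an entry, Ndufs3 alone held any of the 4 motifs. A match is a run of letters and was not tied to the differences in signal.

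Differences in complex I genes between high-ROS and low-ROS CMP were small. Of the 44 genes, 29 had a higher mean in high-ROS CMP and 15 a lower one. The share with a higher mean was 65.9%, against 54% of all genes. The median log2 fold change (high-ROS over low-ROS, of signal plus a pseudocount of 16) was 0.07 over the 44 genes and 0.02 over all 18193 genes. With the Gapdh 3' over 5' ratio as a covariate it was 0.13 over the 44 genes and 0.0088 over all genes. The highest ratios, 4.53 and 3.57, were both on high-ROS arrays, so this covariate is in part confounded with the group. No complex I gene passed an adjusted p under 0.05 (0 of 44, limma with Benjamini-Hochberg adjustment over all genes), where 0.0165% of all genes passed as higher and 0.0385% as lower. The adjusted p-values ran from 0.399, for Ndufs7, to 0.996, for Ndufb10.

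At an unadjusted p under 0.05, 6 of the 44 genes were higher in high-ROS CMP and 0 lower. These were 13.6% of the genes, beside 4.44% of all genes higher and 3.37% lower, and beside 5.55% higher among the genes above the median signal (42 of the 44 complex I genes among them). The 6 were Ndufs7, Ndufs3 and Ndufv2 of the core and Ndufab1, Ndufa5 and Ndufc2 of the supernumerary subunits. This count was 2 without low-ROS replicate 1, low-ROS replicate 3 or high-ROS replicate 1, 3 without low-ROS replicate 2 or high-ROS replicate 3, and 6 without high-ROS replicate 2. With the Gapdh 3' over 5' ratio added to the fit it was 2. The number of all 18193 genes higher at this level also moved, from 808 in the main fit to 597 with this ratio. For the left-out arrays, in the order given, it was 677, 549 and 661 where the complex I count was 2. It was 831 and 638 where that count was 3, and 950 where it was 6. The groups did not overlap for 10 genes that were higher in high-ROS CMP (22.7%, beside 8.04% of all genes and 9.95% of genes above the median signal) and for 1 that was lower, Ndufaf7 (2.27%; 5.32% of all genes). For 36 of the 44 genes the whole 95% interval lay within a 1.5-fold change in either direction, and the median half-width was 0.25 on the log2 scale. These intervals are for single genes, not adjusted for the number of genes. Like the p-values, they cover only the spread between these samples.

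**Figure D1:**
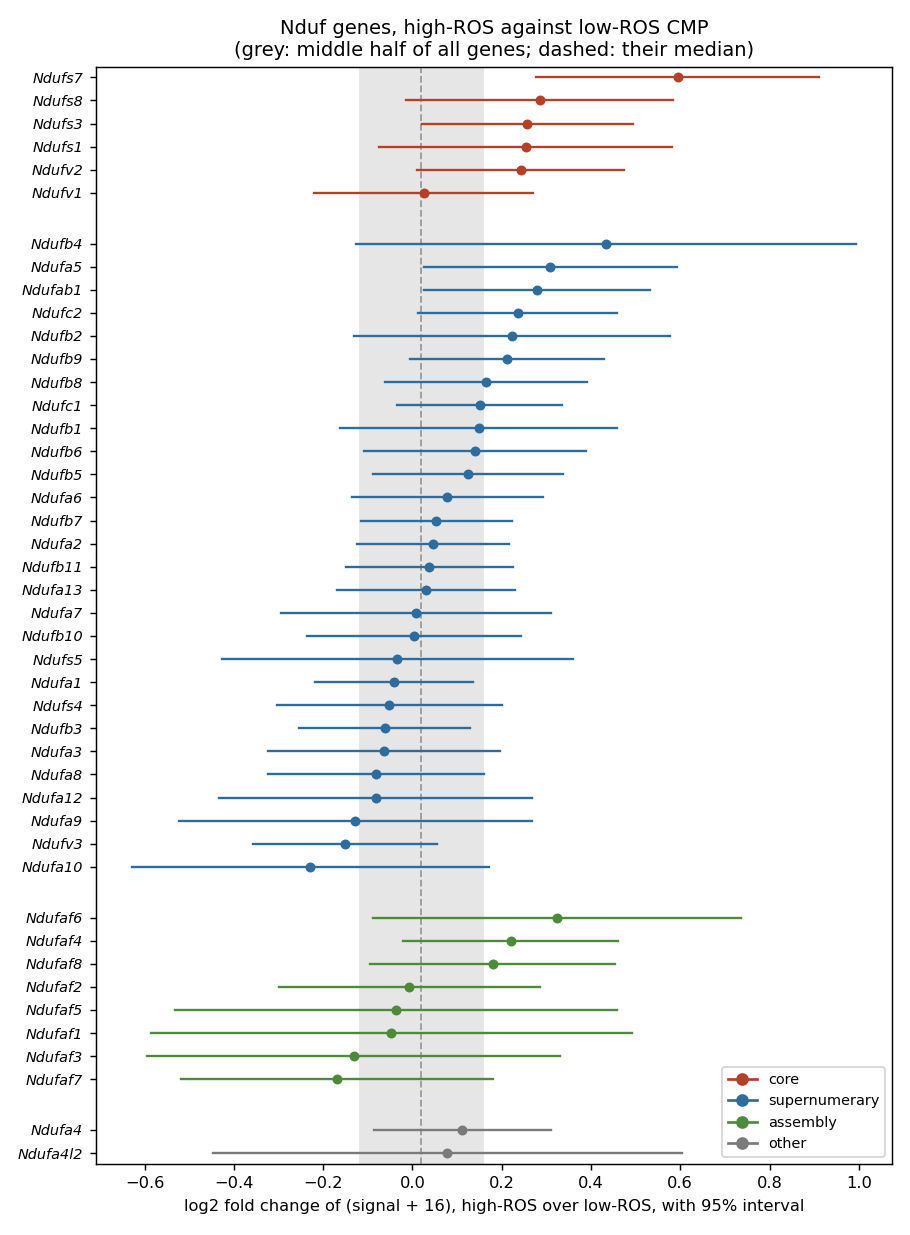
Each point is the log2 fold change of 1 Nduf gene (high-ROS over low-ROS CMP, 3 arrays each, of signal plus 16) with its 95% interval from limma, grouped as core, supernumerary, assembly and other; the grey band is the interquartile range of all genes and the dashed line their median of 0.02. The 6 core genes lie right of 0, the 28 supernumerary genes lie on both sides, and the intervals of 6 of the 44 genes leave out 0.

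All 6 nuclear core genes measured had a higher mean in high-ROS CMP. Their median log2 fold change was 0.26 (1.19-fold), and values ran from 0.02 for Ndufv1 to 0.59 for Ndufs7. In 4 of the 6 the groups did not overlap (8.04% of all genes and 9.95% of those above the median signal), and 0 of 6 passed the adjusted test, so each of these differences is a measured value that the arrays do not separate from the spread once all genes are counted. The median of the class lay between 0.20 and 0.31 in the 15 alternative settings and was 0.24 with the Gapdh ratio as a covariate. ND5, a proton-pumping core subunit encoded by mitochondrial DNA and outside the 44 genes, had 6040, 5989 and 5057 in high-ROS CMP, against 6582, 6297 and 5832 in low-ROS CMP. Its mean was lower in high-ROS CMP, the opposite direction to the nuclear core genes, with overlapping groups (log2 fold change -0.13, SE 0.0875, 95% interval -0.33 to 0.06, adjusted p = 0.738).

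Ndufs7, the subunit with the last iron-sulfur cluster before ubiquinone, had signals of 1022, 1067 and 1214 in high-ROS CMP, against 597, 852 and 740 in low-ROS CMP. Every high-ROS array was above every low-ROS array. Its mean was 1101 ± 100.5 (SD, n = 3) in high-ROS CMP and 730 ± 128 (SD, n = 3) in low-ROS CMP. The log2 fold change was 0.59 (SE 0.144, 95% interval 0.28 to 0.91, adjusted p = 0.399, limma). The 95% interval excluded 0, but with all genes counted the difference did not pass. A second, dimmer probe set of the gene averaged 376 in high-ROS CMP and 303 in low-ROS CMP, with a log2 fold change of 0.29 (SE 0.141), and its groups did not overlap either. Over the 15 alternative settings the value for Ndufs7 ran from 0.44 to 0.71 and the adjusted p from 0.238 to 0.759.

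Ndufs8, a neighbour in the peripheral arm that holds further iron-sulfur clusters, had 862, 865 and 1155 in high-ROS CMP, against 774, 809 and 751 in low-ROS CMP. The groups did not overlap, and high-ROS replicate 3 stood above the other arrays. The log2 fold change was 0.29 (SE 0.136, adjusted p = 0.641), and it was 0.15 without high-ROS replicate 3 and 0.08 with the Gapdh covariate. The gene has 6 probe sets, whose values ran from -0.31, on a dim one, to 0.31. Ndufs3, a subunit of the ubiquinone-binding part that carries no cluster, had 1253, 1234 and 1147 in high-ROS CMP, against 1030, 1069 and 937 in low-ROS CMP. All 3 high-ROS arrays were above all 3 low-ROS arrays, and the log2 fold change was 0.26 (SE 0.108; adjusted p = 0.617).

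The other core subunits lie at the NADH end of the enzyme. Ndufv2, which carries an iron-sulfur cluster beside the flavin site, had 1296, 1282 and 1418 in high-ROS CMP, against 1048, 1187 and 1136 in low-ROS CMP. The groups were apart (log2 fold change 0.24, SE 0.105, adjusted p = 0.626), but the other two probe sets gave 0.17 and 0.05. Ndufs1, the largest subunit, with several clusters, had 515, 525 and 474 in high-ROS CMP, against 354, 485 and 433 in low-ROS CMP. Low-ROS replicate 2 lay above high-ROS replicate 3, so the groups overlapped (log2 fold change 0.25, SE 0.150, adjusted p = 0.708). Without low-ROS replicate 1, the lowest array, the value was 0.13, and with the Gapdh covariate it was 0.39. Ndufv1, which binds NADH and the flavin, had 1108, 1148 and 1164 in high-ROS CMP, against 1258, 1064 and 1050 in low-ROS CMP. The highest array was a low-ROS one, and the log2 fold change was 0.02 (95% interval -0.22 to 0.27), with 0.02 and 0.07 on its other probe sets. Its sign was negative without low-ROS replicate 2 or 3 and with the Gapdh covariate.

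**Figure D2:**
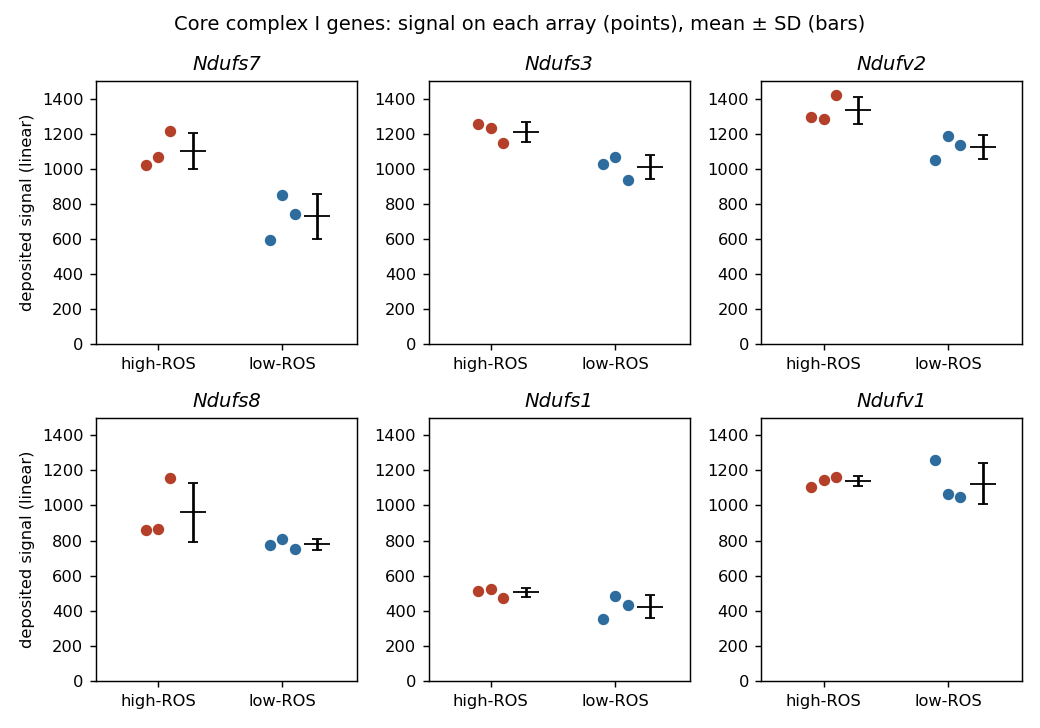
Deposited signal (linear scale) of the 6 core genes on each array, high-ROS CMP at left and low-ROS CMP at right in each panel, with the mean and SD of the 3 arrays beside the points. The groups are apart for Ndufs7, Ndufs3, Ndufv2 and Ndufs8 and overlap for Ndufs1 and Ndufv1.

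Of the 28 supernumerary genes, 18 had a higher mean in high-ROS CMP and 10 a lower one, the median of their log2 fold changes was 0.04, against 0.02 for all genes, and 0 were past the adjusted test. With the Gapdh covariate this median was 0.11, against 0.0088 for all genes, and with quantile normalization it was 0.092, against 0.027. The members of the peripheral arm (8 genes) had a median of -0.02, and those of the membrane arm (19 genes) 0.05, with Ndufab1 counted in neither because it sits in both. The groups did not overlap for 4 of the 28, each higher in high-ROS CMP (14.3%; 8.04% of all genes).

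Ndufab1, the mitochondrial acyl carrier protein, which also serves fatty acid synthesis, had 824, 789 and 779 in high-ROS CMP, against 614, 671 and 679 in low-ROS CMP. The groups were well apart, with means of 797 ± 23.8 in high-ROS CMP and 655 ± 35.9 in low-ROS CMP (SD, n = 3 each). The log2 fold change was 0.28 (SE 0.116, adjusted p = 0.613). Its 5 probe sets all had a higher mean in high-ROS CMP, from 0.11 to 0.48, several of them dim. A probe set shared with the pseudogene Ndufab1-ps averaged 695 in high-ROS CMP and 511 in low-ROS CMP. Ndufa5, a peripheral arm subunit, had 1806, 1741 and 2127 in high-ROS CMP, against 1552, 1749 and 1286 in low-ROS CMP. Here low-ROS replicate 2 reached above high-ROS replicate 2 (log2 fold change 0.31, SE 0.129, adjusted p = 0.617), and the value was 0.19 without low-ROS replicate 3, its lowest array, and 0.11 with the Gapdh covariate.

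The other supernumerary genes with separate groups were Ndufc2, Ndufb9 and Ndufc1, all of the membrane arm. Ndufc2 had 1542, 1483 and 1692 in high-ROS CMP, against 1265, 1391 and 1338 in low-ROS CMP (log2 fold change 0.24, SE 0.101, adjusted p = 0.621). Ndufb9, a subunit that binds the acyl carrier protein, had 2662, 2482 and 3061 in high-ROS CMP, against 2364, 2457 and 2236 in low-ROS CMP (log2 fold change 0.21, SE 0.0992, adjusted p = 0.638). Without high-ROS replicate 3, its highest array, the value for Ndufb9 was 0.13, and with the Gapdh covariate it was 0.05. Ndufc1 had 3209, 3052 and 3069 in high-ROS CMP, against 2772, 2982 and 2653 in low-ROS CMP (log2 fold change 0.15, SE 0.0839, adjusted p = 0.693). Their other probe sets gave smaller or opposite values: -0.02, 0.11 and 0.04 for Ndufc2, -0.04 and, on a dim one, -0.25 for Ndufb9, and 0.13 for Ndufc1.

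At the other end was Ndufa10, a membrane arm subunit with a fold like that of nucleoside kinases, with the lowest log2 fold change of the 44 genes at -0.23 (SE 0.182, adjusted p = 0.784). Its signals were 1012, 1186 and 668 in high-ROS CMP, against 1003, 1165 and 1113 in low-ROS CMP. One array, high-ROS replicate 3, lay far below the others, and without it the log2 fold change was 0.0052. That array also had the highest Gapdh 3' to 5' ratio, and the value was 0.19 with the ratio as a covariate. Ndufb4 had the second highest log2 fold change of the 44 genes, 0.43 (SE 0.255), from a probe set at 15.3 to 46.6 in high-ROS CMP and 12.5 to 22.5 in low-ROS CMP, near or below the array medians of 40.4 to 42.5. The 22 supernumerary genes not chosen by the naming rule, Ndufb4 among them, had unadjusted p-values between 0.116 and 0.974; 13 had a higher mean in high-ROS CMP and 9 a lower one, down to -0.15 for Ndufv3.

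The assembly factors showed no common direction. Of 8 genes, 3 had a higher mean in high-ROS CMP and 5 a lower one, the median of their log2 fold changes was -0.02, and 0 passed the adjusted test or an unadjusted p under 0.05. Ndufaf4, which works with Ndufaf3 on the ubiquinone-binding part, had 1000, 989 and 973 in high-ROS CMP, against 907, 832 and 800 in low-ROS CMP. The groups were apart, at log2 fold change 0.22 (SE 0.109; adjusted p = 0.652). Its other probe set gave 0.11. Its partner Ndufaf3 had a log2 fold change of -0.13 (SE 0.210, 95% interval -0.59 to 0.33). Ndufaf6, an early-acting factor, had 107, 118 and 114 in high-ROS CMP, against 88.5, 87.1 and 85.3 in low-ROS CMP. The groups did not overlap, but at this low signal the test gave a log2 fold change of 0.32 with an SE of 0.187 (adjusted p = 0.705).

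Ndufaf7, a methyltransferase that acts in assembly, was the one gene whose high-ROS arrays all lay below the low-ROS arrays. It had 247, 250.5 and 238 in high-ROS CMP, against 319, 253 and 263 in low-ROS CMP, and its log2 fold change was -0.17 (SE 0.159, adjusted p = 0.827). The gap between the nearest arrays was small, and without low-ROS replicate 1, the highest array, the value was -0.07. The other 5 assembly factors ran from -0.13, for Ndufaf3, to 0.18, for Ndufaf8. The assembly median changed sign with the setting, from -0.13 without high-ROS replicate 2 to 0.09 without high-ROS replicate 3, and it was 0.21 with the Gapdh covariate.

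The classes were also followed array by array, after the mean of each gene over the 6 arrays was subtracted from its log2 values. The core median was 0.12, 0.11 and 0.13 on high-ROS replicates 1 to 3, against -0.18, -0.06 and -0.15 on low-ROS replicates 1 to 3. The core median was thus higher on every high-ROS array than on any low-ROS array. The supernumerary median was 0.001, 0.05 and 0.04 on the high-ROS arrays, against -0.08, 0.04 and -0.04 on the low-ROS arrays, and here low-ROS replicate 2 lay among the high-ROS arrays. The assembly median was -0.04, 0.18 and -0.14 on the high-ROS arrays, against values between -0.03 and -0.004 on the low-ROS arrays. The assembly median thus spread more among the high-ROS arrays than among the low-ROS arrays, while for single genes the SD was not always larger in high-ROS CMP (Ndufaf4, 13.5 in high-ROS CMP and 55.0 in low-ROS CMP). Over all genes the median was 0.012, 0.009 and 0.012 on the high-ROS arrays, against 0.003, 0.011 and -0.045 on the low-ROS arrays. On low-ROS replicate 3 the supernumerary median, -0.0445, was thus near that of all genes, and the core median, -0.148, was lower. The classes hold 6, 28 and 8 genes that share these 6 arrays, and the difference between classes was not tested.

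**Figure D3:**
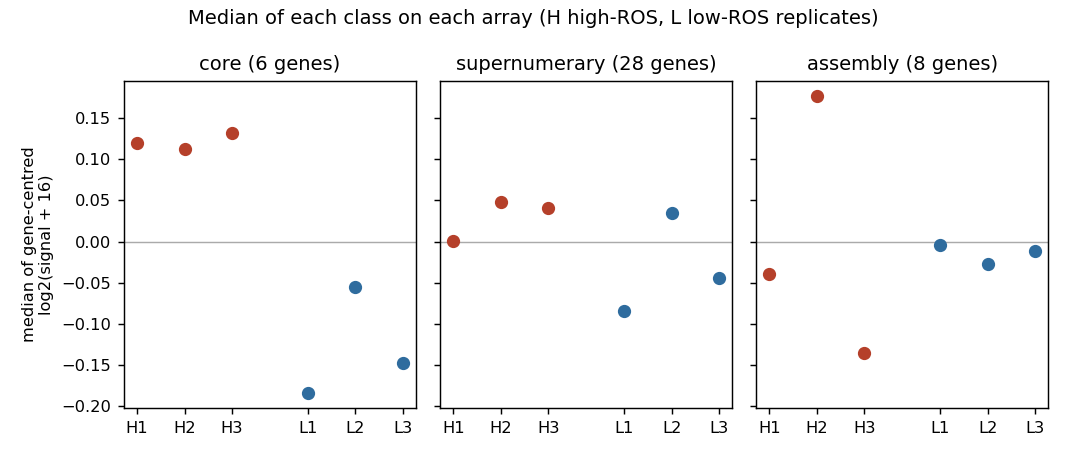
Median over the genes of each class of the gene-centred log2(signal + 16) on each array; H1 to H3 are high-ROS and L1 to L3 low-ROS replicates. The core medians are 0.11 to 0.13 on high-ROS arrays and -0.18 to -0.06 on low-ROS arrays, while the assembly medians of the high-ROS arrays spread from -0.14 to 0.18 around the low-ROS ones. The medians over all genes, not drawn, lie between -0.045 and 0.012.

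**Figure D4:**
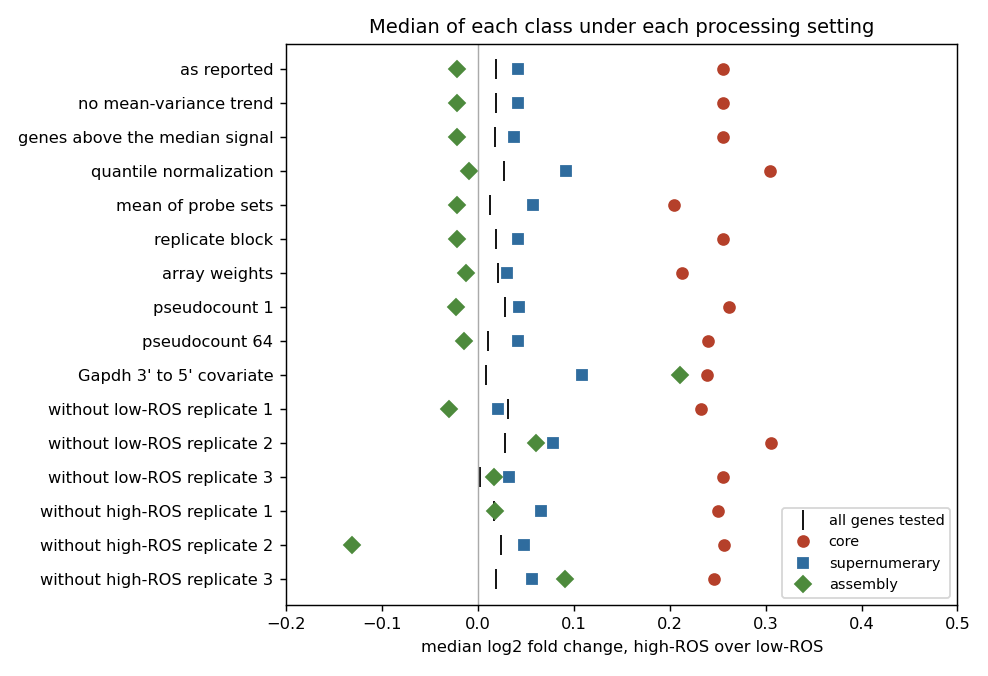
Median log2 fold change (high-ROS over low-ROS CMP) of the core, supernumerary and assembly genes and of all genes tested, as reported and under each of 15 alternative settings. The core median stays between 0.20 and 0.31 and the supernumerary median between 0.02 and 0.11, while the assembly median runs from -0.13 to 0.21.

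Ndufa4 and Ndufa4l2 carry the Nduf name but belong to neither kind of subunit. Ndufa4, now counted as a subunit of complex IV, had 2833, 3213 and 3159 in high-ROS CMP, against 2640, 2872 and 3000 in low-ROS CMP, with overlapping groups and a log2 fold change of 0.11 (SE 0.0905, 95% interval -0.09 to 0.31), or 0.06 without low-ROS replicate 1. Its paralog Ndufa4l2, known as a gene induced in hypoxia, stayed near the array medians, with 62.5, 30.7 and 35.2 in high-ROS CMP, against 42.2, 35.2 and 37.6 in low-ROS CMP. Its log2 fold change of 0.08 (SE 0.238) was -0.15 without high-ROS replicate 1.

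Assembly and insertion factors of complex I that carry other names were measured for 15 of 16 listed genes. Of these, 7 had a higher mean in high-ROS CMP and 8 a lower one, the median log2 fold change was -0.01, and 0 passed the adjusted test or an unadjusted p under 0.05. Tmem70, which helps to assemble complex I and the ATP synthase, had 388, 341 and 484 in high-ROS CMP, against 332, 306 and 313 in low-ROS CMP, and was the 1 gene of the 15 whose groups did not overlap, a share near the 8.04% of all genes (log2 fold change 0.32, SE 0.161, adjusted p = 0.652). Ecsit, a factor of the intermediate assembly complex, had 171, 221 and 159 in high-ROS CMP, against 119, 160 and 134 in low-ROS CMP (log2 fold change 0.38, SE 0.198, adjusted p = 0.672). Its groups overlapped. Dmac2 (log2 fold change -0.27, adjusted p = 0.795) and Lyrm2 (0.24, adjusted p = 0.810) had overlapping groups.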

How the data were processed

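RNA of the sorted CMP was amplified and biotinylated with a NuGEN Ovation kit and read on one-colour arrays, per the labels' protocols. The deposited values are linear intensities, 1 per probe set and array; the sources used here do not say how the authors summarised and scaled these intensity values. There is no detection call, and array medians were 40.4 to 42.5. Of 45101 probe sets, 64 are controls. Probe sets were named from the platform's annotation, and those with several symbols were left out of the fit over genes. All 44 Entrez identifiers were found in RefSeq (GRCm38.p6), and the sources used here name no build for the probe sets.

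From the intensities, log2(signal + 16) was computed with no further normalization. High-ROS CMP were compared with low-ROS CMP by limma 3.58.1 in R 4.3.3 (2-sided; lmFit and eBayes, trend on), with 4 residual and 11.1 total degrees of freedom, Benjamini-Hochberg adjustment over 18193 genes and a threshold of 0.05. An exact permutation test of 3 against 3 arrays cannot go below 0.1. Other probe sets were tested in a fit over all 45037 probe sets that are not controls. The fit was run on simulated data, with added differences larger than that of any complex I gene. That run does not cover differences of the size reported here. Python 3.11.15 and matplotlib 3.10.9 drew the figures.

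Classes and lists were chosen with earlier results of these data known. The text names all core genes, every other member with an unadjusted p under 0.05 or groups that do not overlap, the extremes, Ndufa4, Ndufa4l2 and Ndufab1, and the 4 other assembly factors with the smallest p; Ndufb4, Ndufv3, Ndufaf3, Ndufaf8, Ndufb10 and ND5 were named after their values were seen. Precision is limited by the number of arrays.

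The 15 alternatives were pseudocounts of 1 and 64, quantile normalization, no trend, array weights, a block for the replicate number, averaged probe sets, a filter to genes above the median signal, the log2 Gapdh ratio (3' over 5') as covariate, and leaving out each of the 6 arrays.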

Additional observations from a re-analysis of the deposited data

How the results depend on the processing

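No complex I gene passed the adjusted test in any of the 15 alternatives, the smallest adjusted p being 0.238. Over all genes, 10 were called; the count was 0 without the mean-variance trend, 17 among genes above the median signal, 4 with the replicate block, 30 with array weights, 4 with a pseudocount of 64, 3 with the Gapdh covariate and 1 to 6 with 1 array left out. Complex I genes higher at an unadjusted p under 0.05 (limma) numbered 6. There were 9 with quantile normalization, 2 without the trend, 2 with the Gapdh covariate and 2 to 6 with 1 array left out. Over all 18193 genes the count was 808, and it was 898, 829, 597 and 549 to 950 in these settings, in this order. Complex I genes lower at this level numbered 0, and 0 to 1 with 1 array left out.

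The median of all complex I genes, 0.07, was 0.13 with the Gapdh covariate, while that of all genes went from 0.02 to 0.0088. The core median, 0.26, was 0.30 with quantile normalization, 0.20 with the mean of probe sets and 0.23 to 0.31 with 1 array left out. The supernumerary median, 0.04, was 0.092 with quantile normalization and 0.11 with the Gapdh covariate. The assembly median, -0.02, was 0.21 with that covariate and -0.13 to 0.09 with 1 array left out.

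Of 254 values of the 17 named members under alternatives, 8 changed sign. Ndufv1, at 0.02, was -0.052 with the Gapdh covariate and -0.021 to 0.11 with 1 array left out (-0.01 without low-ROS replicate 2). Ndufa10, at -0.23, was 0.18 with the mean of probe sets, 0.19 with the Gapdh covariate and -0.40 to 0.0052 with 1 array left out. Ndufb9, at 0.21, was -0.025 with the mean of probe sets. Ndufa4l2, at 0.08, was -0.15 to 0.23 with 1 array left out. The cause of these changes was not tested.

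Whether the replicate numbers pair the samples is not stated. Deviations of same-numbered samples from their group means correlated at 0.12, 0.10 and 0.00 over all genes. With so few arrays these values cannot decide whether same-numbered samples were sorted together. With the replicate block the medians could not change, because each replicate number has an array in both groups. Leaving out the mean-variance trend cannot move them either. With the block, 6 complex I genes were higher at an unadjusted p under 0.05 (limma). With no detection call, values near the array medians cannot be told from background.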

Other observations

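Probe sets that the annotation gives to several genes were read as well, a step chosen after seeing the data. Ndufb4 shares a pair of probe sets with its copies Ndufb4b and Ndufb4c, which averaged 867 and 618 in high-ROS CMP, against 937 and 642 in low-ROS CMP, with log2 fold changes of -0.12 (SE 0.123) and -0.06 (SE 0.136). The dim probe set that names Ndufb4 alone had 0.43. The probe set of Ndufs6, a zinc-binding subunit of the peripheral arm, is shared with Ndufs6b and had 1533 in high-ROS CMP and 1547 in low-ROS CMP, with a log2 fold change of -0.02 (SE 0.121). The brighter probe set shared by Ndufa11 and Ndufa11b had 364 in high-ROS CMP and 369 in low-ROS CMP, with a log2 fold change of -0.02 (SE 0.142). None of these probe sets passed an adjusted p under 0.05 (0 of the 98 that name an Nduf gene, limma over all probe sets), and near-identical copies cannot be told apart on them.

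Of the 44 single-name probe sets that did not stand for their gene, 28 had the sign of the one that did and 16 the opposite sign. Among the 31 with a mean signal of 100 or more in both groups, 21 had the same sign. For Ndufs4 the chosen probe set gave -0.05 (SE 0.118) and a second bright one 0.26 (SE 0.134). For Ndufa10 the chosen one gave -0.23 (SE 0.185), and a dim one, at 39.4 in high-ROS CMP and 20.4 in low-ROS CMP, gave 0.59 (SE 0.239).

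Of the 44 genes, 7, 14 and 13 had their highest signal on high-ROS replicates 1 to 3, against 5, 5 and 0 on low-ROS replicates 1 to 3. The lowest signal fell on high-ROS replicates 1 to 3 for 4, 1 and 11 genes, against 13, 1 and 14 on low-ROS replicates 1 to 3. High-ROS replicate 3 thus held both many of the highest and many of the lowest signals. It had the highest Gapdh 3' to 5' ratio, 4.53. The part of this ratio was not tested for single genes beyond the covariate fit. Low-ROS replicate 3 had the lowest array median, 40.4, and a median of gene-centred values over all genes of -0.045. The counts of highest and lowest signals were not made over all genes.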
